A study of Mus musculus with 23 samples.

Results

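The genes described here encode anti-Müllerian hormone, the subunits of the inhibins and activins, their binding protein, and the growth factors of the oocyte with one of their receptors. They were taken from the count table by gene symbol, which gave 9 of 9 genes (Amh, Amhr2, Inha, Inhba, Inhbb, Fst, Gdf9, Bmp15 and Bmpr1b) among 24716 listed, and all 9 passed the filter on low counts that left 20189 genes. RNA of whole ovaries was sequenced from wild type females of 3 inbred mouse strains, which were C57BL/6J, the common laboratory strain, CAST/EiJ, an inbred line founded by wild-caught castaneus mice, and NZO/HlLtJ, a polygenic model of obesity and diabetes. From 6 weeks of age the mice ate either a 10% fat diet with fiber or a 44% fat diet with fiber that was also high in sugar, and ovaries were taken at 15 weeks. Fat and sugar cannot be told apart in this design. C57BL/6J on 10% fat had 3 libraries, and each of the other 5 groups had 4 (C57BL/6J on 44% fat, and either diet for the strains CAST/EiJ and NZO/HlLtJ), which makes 23 libraries. The stage of the estrous cycle and whether libraries came from separate animals are not given in the labels, so each p-value speaks only of how far these libraries scatter, and that scatter may be technical.

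All of these genes belong to the transforming growth factor beta system of the ovarian follicle. Granulosa cells of small growing follicles secrete AMH, which acts through its type II receptor AMHR2 on neighbouring follicles and restrains their recruitment and their response to follicle stimulating hormone. An inhibin is a dimer of the alpha subunit INHA with a beta subunit, INHBA or INHBB, and lowers the secretion of follicle stimulating hormone by the pituitary, whereas dimers of beta subunits are activins, which raise it and act within the follicle. Follistatin, encoded by Fst, binds activins and blocks them. GDF9 and BMP15 are secreted by the oocyte and act on the granulosa and cumulus cells around it, in part through BMPR1B, a type I receptor.

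Levels are given in CPM, the counts of a gene as parts of its library's scaled total on the usual per-million basis, and the totals were 31.9 to 45.9 M estimated counts per library. Markers of the labelled tissue were present throughout. The summed level of 8 granulosa cell markers was 1928 to 5011 CPM and that of 12 oocyte markers 110 to 547 CPM, with no marker of either list at 0 in any library. Some libraries stood apart. CAST/EiJ 10% fat replicate 2 had 5178 CPM over 8 oviduct epithelium markers, against 9.35 to 243 CPM in the other libraries, and 971 CPM over 6 white adipocyte markers, and its score for granulosa markers (for each marker the log2 of its CPM over that of the middle library, then the median over markers) was the lowest of all, at -1.04. C57BL/6J 44% fat replicate 1 had the next highest oviduct sum, at 243 CPM. Among the C57BL/6J libraries on 10% fat the granulosa scores were 0.44 in replicate 2 and -0.85 and -0.60 in the others. Of the oviduct markers Dnah5, and of the adipocyte markers Adipoq, Lep, Cidec, Retn and Cfd, were at 0 in at least 1 library. Without CAST/EiJ 10% fat replicate 2, 2 oviduct markers passed as higher and 1 as lower in CAST/EiJ against C57BL/6J (3 and 0 with it), and 4 adipocyte markers as higher (6 with it). In whole ovary RNA, fewer cells of a type and less RNA per cell cannot be told apart.

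Of the 9 genes, Amh had the largest log2 difference between strains: it was lower in CAST/EiJ ovaries than in either other strain, while its receptor gene Amhr2 and the oocyte factor Gdf9 were higher in CAST/EiJ than in C57BL/6J. In the comparison of CAST/EiJ with C57BL/6J averaged over diets, 3 of the 9 genes passed edgeR's quasi-likelihood test (Benjamini-Hochberg adjusted p under 0.05), 2 higher and 1 lower, where 46.8% of all genes tested passed. In NZO/HlLtJ against CAST/EiJ, 1 of 9 passed, Amh, where 48.1% of all genes passed. In NZO/HlLtJ against C57BL/6J, 0 of 9 passed in edgeR where 23.9% of all genes passed. At an unadjusted p under 0.05 there were 3 of 9 in that last comparison, and DESeq2 and limma called 1 each. The median log2 difference over the 9 genes was 0.21 in the first of these comparisons, -0.28 in the second and -0.08 in the third, against 0.01, -0.02 and -0.00065 over all genes tested. The 3 comparisons share libraries, so they are not independent.

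**Figure D1:**
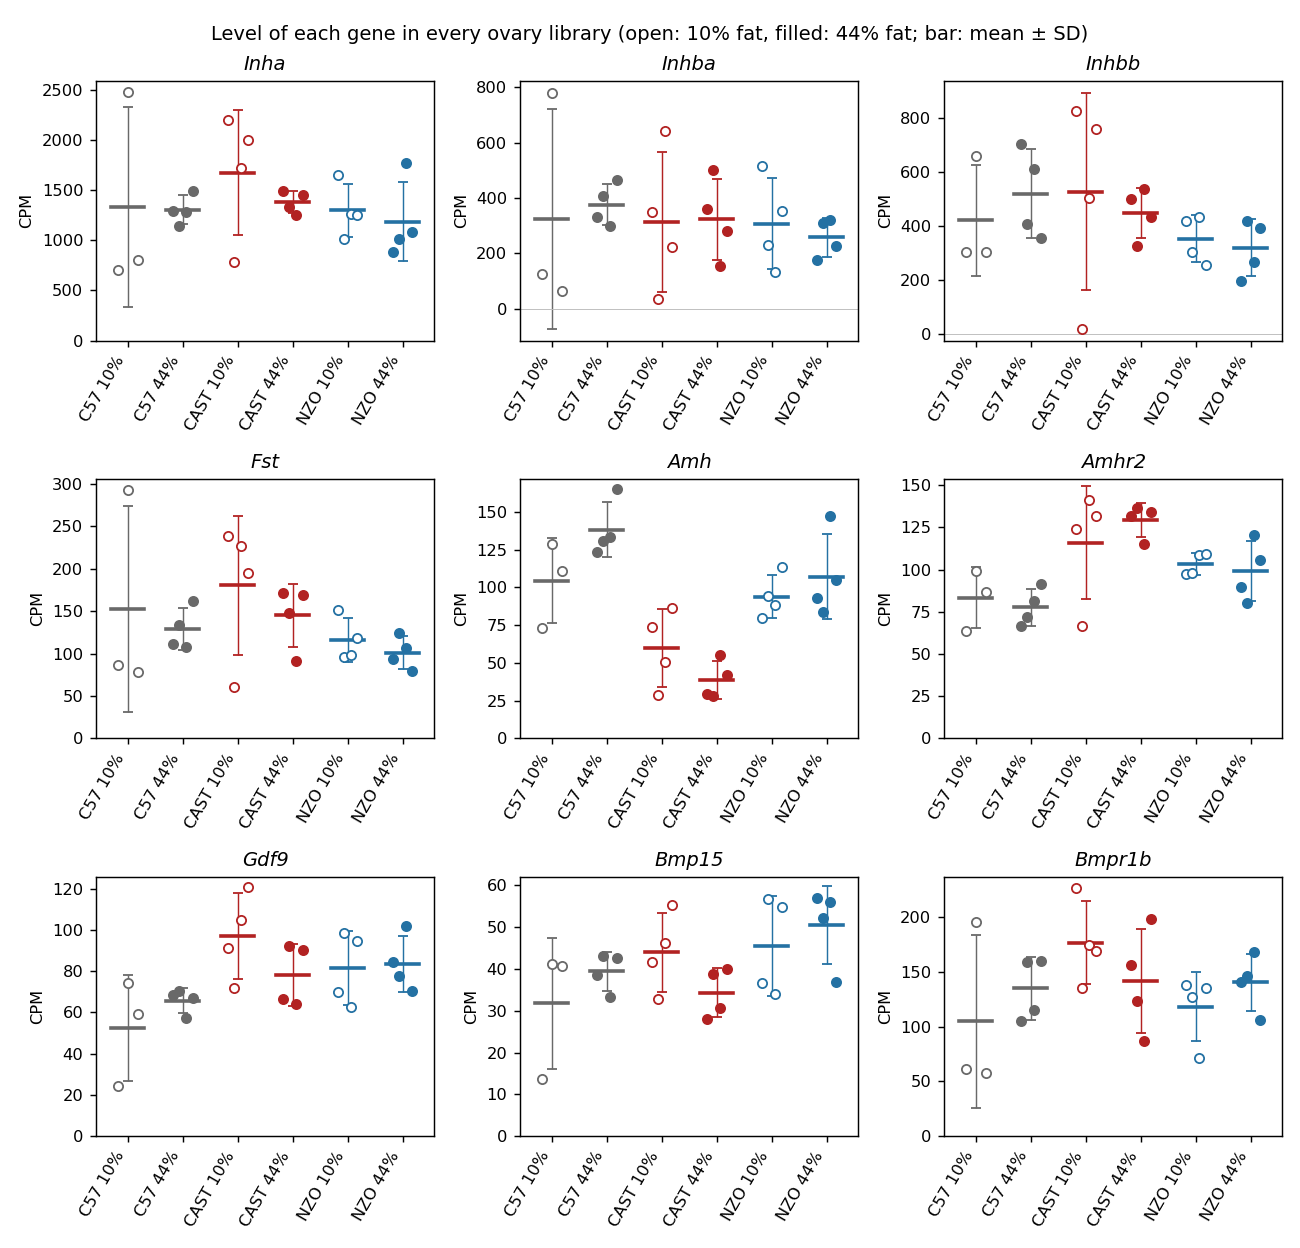
CPM of each of the 9 genes in every library (points), by strain and diet (open points 10% fat, filled points 44% fat), with the group mean (wide bar) and SD. Amh in CAST/EiJ (red) lies between 27.8 and 86.4 CPM and below every library of the other strains on 44% fat, while the spread of Inha, Inhba and Fst in C57BL/6J on 10% fat comes from 1 high library.

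Amh (chr10:80805248-80807648, plus strand, build GRCm38, a protein-coding gene with 5 exon blocks) encodes the hormone itself. In C57BL/6J its level was 73.4, 129 and 111 CPM on 10% fat, and 124, 131, 133 and 165 CPM on 44% fat. The CAST/EiJ libraries held 74.0, 28.8, 50.3 and 86.4 CPM on 10% fat, and 29.3, 27.8, 54.9 and 41.9 CPM on 44% fat. Those of NZO/HlLtJ held 79.6, 94.0, 88.2 and 113 CPM on 10% fat, and 93.2, 83.7, 147 and 105 CPM on 44% fat. On 44% fat every CAST/EiJ library was below every library of the other strains. How many of all genes part the strains as fully was not counted, here or for the ranges of other genes below. On 10% fat the ranges of CAST/EiJ overlapped with both others, through C57BL/6J replicate 1 at 73.4 CPM and the CAST/EiJ libraries at 74.0 and 86.4 CPM. The log2 difference of CAST/EiJ from C57BL/6J was -1.32 ± 0.20 (SE), or 2.50-fold lower, with an edgeR adjusted p of 2.7e-05. That of NZO/HlLtJ from CAST/EiJ was 1.06 ± 0.20, or 2.09-fold higher, with an edgeR adjusted p of 0.00019. NZO/HlLtJ differed from C57BL/6J by -0.26 ± 0.20, which did not pass (edgeR adjusted p = 0.38). The genome to which the reads of CAST/EiJ and NZO/HlLtJ were aligned is not given in the sources used here. Its part in these or the other strain differences was not tested.

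Granulosa markers were set beside Amh, as a list that does not single out the small growing follicles that secrete AMH. Of the 8 granulosa markers, 1 passed as higher and 0 as lower in CAST/EiJ against C57BL/6J in edgeR, where 46.8% of all genes passed. Their median log2 difference was 0.29 against 0.01 over all genes. Without C57BL/6J 10% fat replicate 2 the counts were 5 higher and 0 lower, and without CAST/EiJ 10% fat replicate 2 they were 3 higher and 0 lower. With all libraries the marker that passed was Ihh, a hedgehog ligand of granulosa cells, at 1.37 ± 0.30 (edgeR adjusted p = 0.00099). In NZO/HlLtJ against CAST/EiJ, 48.1% of all genes passed and Amh was higher. There 0 granulosa markers were higher and 2 were lower, Ihh at -1.83 and Serpine2 at -0.66. Gata4, Nr5a1, Wt1 and Foxl2 encode transcription factors known to act on the Amh promoter. Of these 4, 1 was higher in CAST/EiJ than in C57BL/6J and 0 were lower, where 46.8% of all genes passed. The higher gene was Nr5a1, the orphan nuclear receptor SF-1, at 264 ± 67.7 CPM in C57BL/6J (SD, n = 7) and 408 ± 139 CPM in CAST/EiJ (SD, n = 8), a log2 difference of 0.63 ± 0.21 (edgeR adjusted p = 0.022). Of markers of other cells, 5 of 8 luteal and 5 of 7 macrophage markers were lower in CAST/EiJ than in C57BL/6J. Higher were 4 of 6 theca, 3 of 8 oviduct and 6 of 6 white adipocyte markers. These counts stand against the same 46.8% of all genes, and no shift of a cell type is read from them. The summed oviduct markers ranged from 9.35 to 243 CPM in C57BL/6J, 39.4 to 5178 CPM in CAST/EiJ and 13.7 to 24.96 CPM in NZO/HlLtJ, and the summed adipocyte markers from 19.0 to 78.6 CPM, 41.5 to 971 CPM and 33.9 to 56.1 CPM. Without both libraries richest in oviduct RNA the Amh difference was -1.23 (adjusted p = 3.6e-05). The part of cell composition in the Amh difference was not tested.

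The library identifiers fall into series numbered 76, 82 and 90, which no label calls a batch. The groups were not spread evenly over them. C57BL/6J and NZO/HlLtJ on 10% fat had libraries only in series 76 and 82. NZO/HlLtJ on 44% fat had libraries only in series 76 and 90. In these strains diet and series were therefore partly tied. Within series 76, Amh was 73.4 to 124 CPM in C57BL/6J, 29.3 to 74.0 CPM in CAST/EiJ and 79.6 to 94.0 CPM in NZO/HlLtJ. Within series 82, the ranges were 111 to 133 CPM, 27.8 to 54.9 CPM and 88.2 to 113 CPM in the same order. In series 90, C57BL/6J had a single library at 165 CPM, CAST/EiJ held 41.9 to 86.4 CPM and NZO/HlLtJ 105 to 147 CPM. So in series 82 and 90 no CAST/EiJ library reached the other strains, and in series 76 the CAST/EiJ and C57BL/6J ranges met at 73.4 and 74.0 CPM. With the series as a term in the edgeR model, the Amh difference between CAST/EiJ and C57BL/6J was -1.39 (adjusted p = 2.6e-05), that of Amhr2 0.53 (adjusted p = 0.0016) and that of Gdf9 0.53 (adjusted p = 0.032).

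Amhr2 (chr15:102445367-102454630, plus strand, 11 exon blocks) encodes the receptor that binds AMH. It ran the other way from Amh between CAST/EiJ and C57BL/6J. The C57BL/6J libraries held 63.6, 99.4 and 86.8 CPM on 10% fat, and 66.5, 71.8, 81.5 and 91.3 CPM on 44% fat. CAST/EiJ had 124, 66.7, 141 and 132 CPM on 10% fat, and 132, 137, 115 and 134 CPM on 44% fat. NZO/HlLtJ had 97.2, 97.7, 109 and 109 CPM on 10% fat, and 89.8, 79.9, 120.2 and 106 CPM on 44% fat. Apart from CAST/EiJ 10% fat replicate 2, the oviduct-rich library at 66.7 CPM, every CAST/EiJ library exceeded every C57BL/6J library, and NZO/HlLtJ lay between and overlapped with both. The log2 difference of CAST/EiJ from C57BL/6J was 0.61 ± 0.13, or 1.52-fold higher (edgeR adjusted p = 0.00097). NZO/HlLtJ differed from CAST/EiJ by -0.28 ± 0.13 (edgeR adjusted p = 0.080). Leaving out CAST/EiJ 10% fat replicate 2 brought that difference to -0.37 and an adjusted p of 0.0030, and leaving out NZO/HlLtJ 44% fat replicate 3 to -0.33 and 0.045. Against C57BL/6J, NZO/HlLtJ was at 0.33 ± 0.13 (edgeR adjusted p = 0.081), and it was called at 0.33 without that CAST/EiJ library (adjusted p = 0.014) and at 0.41 without C57BL/6J 10% fat replicate 2 (adjusted p = 0.039).

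The promoter of Amhr2 is shown with its matches to motifs that include CAAGGTC, the core bound by the Nr5a1 product. Whether Nr5a1 has a part in the Amhr2 difference was not tested. These are the 250 bases before the start site in the C57BL/6J reference (RefSeq, build GRCm38.p6, chr15:102445117-102445366, plus strand), printed 5′ to 3′ with motif matches in capitals. The CAST/EiJ sequence was not used here.
Amhr2 promoter: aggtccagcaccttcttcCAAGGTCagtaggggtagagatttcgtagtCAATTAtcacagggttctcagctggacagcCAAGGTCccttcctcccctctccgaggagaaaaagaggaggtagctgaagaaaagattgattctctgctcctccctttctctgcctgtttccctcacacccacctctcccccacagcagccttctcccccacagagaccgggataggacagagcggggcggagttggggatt
It held CAAGGTC at bases 232 to 226 and 172 to 166 before the start, as printed, and the reverse complement of TAATTG, the element of the oocyte homeobox factor NOBOX, at bases 202 to 197. On either strand, CAAGGTC was found in 3.33% and TAATTG in 7.17% of 32817 mouse promoters of this length, and the 2 motifs do not overlap here. A match is a description of the letters and not a binding site.

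**Figure D2:**
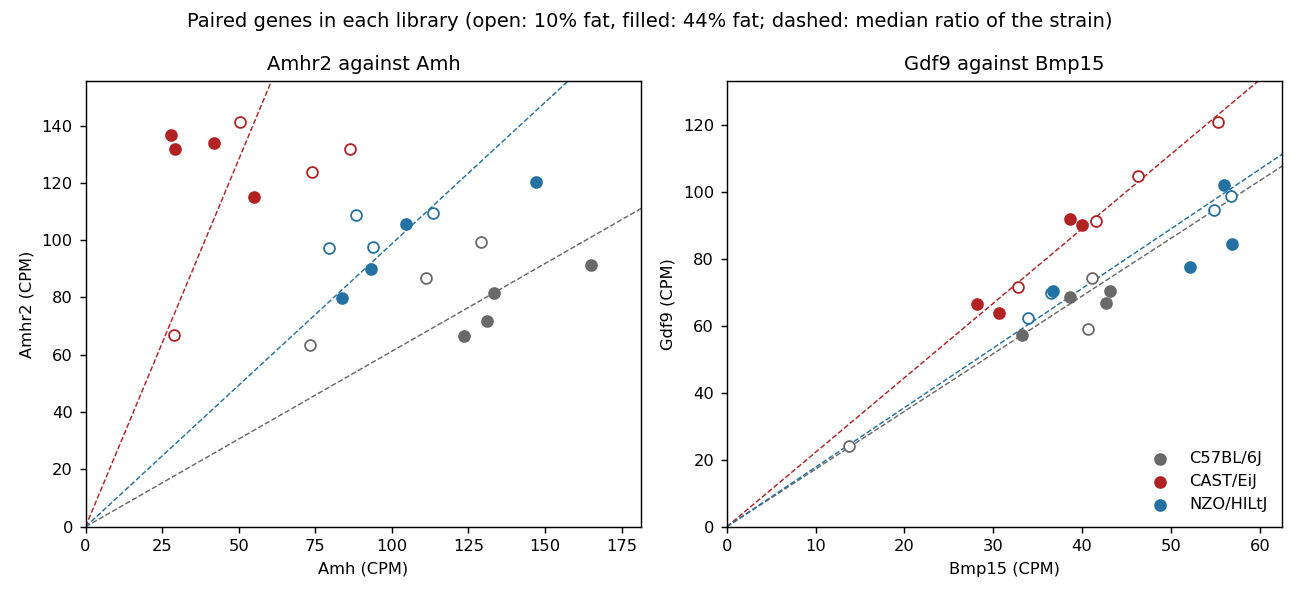
Levels in CPM in each library of Amhr2 against Amh (left) and of Gdf9 against Bmp15 (right), coloured by strain, open for 10% fat and filled for 44% fat, with the median ratio of each strain as a dashed line through 0. In both panels every CAST/EiJ library has a higher ratio than any library of the other strains, 1.52 to 4.91 on the left and 2.09 to 2.38 on the right.

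Amh was called lower and Amhr2 higher in CAST/EiJ than in C57BL/6J, so a higher ratio in CAST/EiJ follows from those calls and adds no support. Within each library the ratio of Amhr2 to Amh was read as a description. It ranged from 0.54 to 0.87 in C57BL/6J, from 0.82 to 1.23 in NZO/HlLtJ and from 1.52 to 4.91 in CAST/EiJ, whose 8 libraries did not overlap with any of the other 15. The oviduct-rich CAST/EiJ library, low in both genes, lay inside the range of its strain in this ratio. C57BL/6J and NZO/HlLtJ overlapped. Within C57BL/6J the ratio was 0.77 to 0.87 on 10% fat (n = 3) and 0.54 to 0.61 on 44% fat (n = 4), with no overlap between the diets. Neither gene passed for diet in C57BL/6J in edgeR (adjusted p = 0.72 for Amh and 0.92 for Amhr2), where 0% of all genes passed. The diets overlapped in the other strains, with 1.52 to 2.81 on 10% fat and 2.09 to 4.91 on 44% fat in CAST/EiJ, and 0.96 to 1.23 and 0.82 to 1.01 in NZO/HlLtJ. The ratio was given no test, and how many other pairs of genes part the strains or diets as fully was not counted.

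Of the oocyte factors, Gdf9 passed in 1 strain comparison and Bmp15 in none. Gdf9 (chr11:53431023-53437904, plus strand, 4 exon blocks) encodes a growth factor needed for follicles to pass the primary stage. C57BL/6J had 24.2, 74.4 and 59.2 CPM on 10% fat, and 68.5, 70.5, 57.3 and 66.9 CPM on 44% fat. In CAST/EiJ it stood at 91.3, 71.7, 105 and 121 CPM on 10% fat, and at 66.4, 92.1, 64.0 and 90.2 CPM on 44% fat. NZO/HlLtJ held 69.8, 98.8, 62.5 and 94.6 CPM on 10% fat, and 84.5, 77.6, 102 and 70.3 CPM on 44% fat. The ranges of all 3 strains overlapped on each diet, and the lowest library was C57BL/6J 10% fat replicate 1. CAST/EiJ exceeded C57BL/6J by 0.57 ± 0.18 on the log2 scale, or 1.48-fold (edgeR adjusted p = 0.015). NZO/HlLtJ exceeded C57BL/6J by 0.49 ± 0.18, which did not pass in edgeR (adjusted p = 0.059). DESeq2 called that difference at 0.49 (adjusted p = 0.033), as did limma on the authors' variance-stabilised values at 0.50 (adjusted p = 0.040). It also passed in edgeR without C57BL/6J 10% fat replicate 2 (0.66, adjusted p = 0.011), CAST/EiJ 10% fat replicate 2 (0.49, adjusted p = 0.048) or NZO/HlLtJ 10% fat replicate 3 (0.54, adjusted p = 0.039). C57BL/6J 10% fat replicate 1, at 24.2 CPM, lowers the mean of its strain. The sizes of the Gdf9 strain differences without that library are not given here. The difference between NZO/HlLtJ and CAST/EiJ was -0.08 ± 0.17 (edgeR adjusted p = 0.74).

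Bmp15 (chrX:6314107-6320721, minus strand, 2 exon blocks) encodes the X-linked partner of GDF9. C57BL/6J held 13.7, 41.1 and 40.6 CPM on 10% fat, and 38.6, 43.2, 33.2 and 42.7 CPM on 44% fat. CAST/EiJ had 41.5, 32.7, 46.3 and 55.3 CPM on 10% fat, and 28.1, 38.7, 30.6 and 40.0 CPM on 44% fat. For NZO/HlLtJ the values were 36.6, 56.8, 33.9 and 54.9 CPM on 10% fat, and 56.9, 52.1, 56.0 and 36.8 CPM on 44% fat. C57BL/6J 10% fat replicate 1 was again the lowest, and all strains overlapped. CAST/EiJ differed from C57BL/6J by 0.13 ± 0.19 (edgeR adjusted p = 0.60) and NZO/HlLtJ from C57BL/6J by 0.44 ± 0.19 (edgeR adjusted p = 0.11). In 1 alternative fit the difference of CAST/EiJ from C57BL/6J had the opposite sign, at -0.04. So Gdf9 passed between CAST/EiJ and C57BL/6J and Bmp15 did not.

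The ratio of Gdf9 to Bmp15 in each library set CAST/EiJ apart more than either level did. It was 2.24 ± 0.10 in CAST/EiJ (SD, n = 8, range 2.09 to 2.38), 1.68 ± 0.13 in C57BL/6J (SD, n = 7, range 1.46 to 1.81) and 1.74 ± 0.17 in NZO/HlLtJ (SD, n = 8, range 1.49 to 1.91). CAST/EiJ did not overlap with either strain on this ratio, and the other strains overlapped with each other. No test was made of this ratio, and how many other pairs of genes part the strains as fully was not counted. The genome to which CAST/EiJ reads were aligned is not given in the sources used here, and its part in a ratio of 2 genes was not tested. C57BL/6J 10% fat replicate 1, low in both genes and with the lowest summed oocyte markers (110 CPM), had a ratio inside the range of its strain. Oocyte markers were also read as a list. In CAST/EiJ 6 of 12 were higher and 0 lower than in C57BL/6J, a share near the 46.8% of all genes that passed, with a median log2 difference of 0.62, and in NZO/HlLtJ 7 of 12 were higher and 0 lower, where 23.9% of all genes passed, also with a median of 0.62. Nobox, which encodes a factor known to drive Gdf9 and Bmp15, was among them at 0.78 ± 0.19 in CAST/EiJ (edgeR adjusted p = 0.0025) and 0.88 ± 0.19 in NZO/HlLtJ (edgeR adjusted p = 0.0024). Beside the list medians of 0.62, the differences from C57BL/6J in CAST/EiJ and NZO/HlLtJ were 0.57 and 0.49 for Gdf9. For Bmp15 they were 0.13 and 0.44. All of these list and gene values include C57BL/6J 10% fat replicate 1 and are not given without it. Its oocyte marker score was -1.64, and the next lowest library, C57BL/6J 44% fat replicate 3, had -0.45. The part of Nobox or of oocyte content in these differences was not tested.

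The promoter of Bmp15 is given as the one of the oocyte pair with an entry in the sequence table. It covers chrX:6320725-6320974 on the minus strand, before a RefSeq start that lies 3 bases from the start in the authors' annotation, with capitals marking the match.
Bmp15 promoter: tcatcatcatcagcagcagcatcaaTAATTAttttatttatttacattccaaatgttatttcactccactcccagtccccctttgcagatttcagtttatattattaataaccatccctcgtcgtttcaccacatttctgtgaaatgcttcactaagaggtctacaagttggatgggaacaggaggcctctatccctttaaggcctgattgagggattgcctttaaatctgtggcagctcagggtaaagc
The alternative NOBOX element TAATTA stood at bases 225 to 220 before the start, and TAATTA was present in 4.85% of the 32817 promoters. Neither TAATTG nor CAAGGTC was found in this window on either strand.

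Bmpr1b (chr3:141837136-142169425, minus strand, 15 exon blocks) encodes the type I receptor through which BMP15 signals in granulosa cells. C57BL/6J had 61.2, 195 and 57.5 CPM on 10% fat, and 105, 159, 115 and 159.7 CPM on 44% fat. CAST/EiJ held 227, 135, 175 and 169 CPM on 10% fat, and 156, 123, 87.2 and 198 CPM on 44% fat. NZO/HlLtJ showed 138, 127, 71.2 and 135 CPM on 10% fat, and 141, 146, 168 and 106 CPM on 44% fat. On 10% fat, C57BL/6J replicate 2 lay within the CAST/EiJ range, and its other libraries were below it. CAST/EiJ differed from C57BL/6J by 0.41 ± 0.24, which did not pass (edgeR adjusted p = 0.18). Without C57BL/6J 10% fat replicate 2, the difference was 0.82 with an edgeR adjusted p of 0.0021, so 1 library decided this call.

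**Figure D3:**
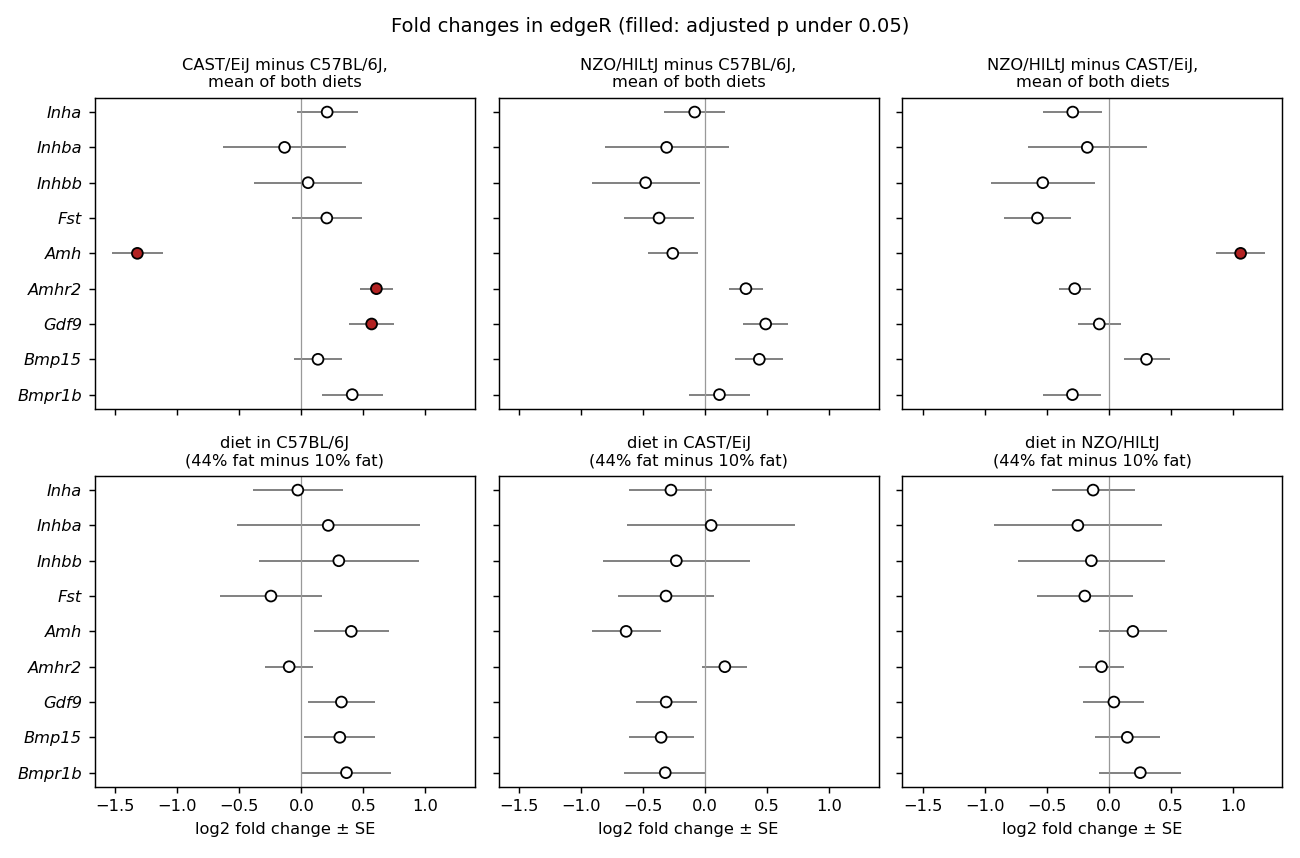
Log2 fold change ± SE of each gene in edgeR for the 3 strain differences averaged over diets (top) and for 44% fat minus 10% fat in each strain (bottom), filled where the adjusted p was under 0.05. Amh, Amhr2 and Gdf9 are filled in CAST/EiJ minus C57BL/6J and Amh in NZO/HlLtJ minus CAST/EiJ, and no gene is filled for diet.

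The genes of the inhibin and activin subunits did not pass between any strains, and Inha and Inhbb had the highest levels of the 9 genes. Per kilobase of exon, over all 23 libraries, the mean level was 924 CPM per kb for Inha, 101 for Inhbb and 49.6 for Inhba. On the same scale Amh stood at 53.7, Amhr2 at 51.0, Gdf9 at 38.2, Fst at 29.8, Bmpr1b at 23.03 and Bmp15 at 13.5 CPM per kb. With SDs of 23.3, 12.1 and 28.2 CPM per kb over all strains, the pooled means of Amh, Amhr2 and Inhba lay within their spread. By strain, Amh and Amhr2 differed in opposite directions. They stood at 74.1 ± 16.5 and 40.0 ± 6.66 CPM per kb in C57BL/6J (SD, n = 7). In CAST/EiJ they stood at 29.5 ± 13.1 and 61.2 ± 12.0, and in NZO/HlLtJ at 60.2 ± 13.0 and 50.4 ± 6.29 (SD, n = 8 each). Inha exceeded each other gene by more than its SD of 306 CPM per kb. From the lowest to the highest library the CPM spanned 44.3-fold for Inhbb, 21.0-fold for Inhba, 5.93-fold for Amh, 3.55-fold for Inha and 2.22-fold for Amhr2. Without CAST/EiJ 10% fat replicate 2 the span was 4.18-fold for Inhbb, below that of Amh, and 11.9-fold for Inhba.

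Inha (chr1:75507077-75510366, plus strand, 2 exon blocks) encodes the α subunit found in every inhibin. Its level in C57BL/6J was 699, 2479.6 and 807 CPM on 10% fat, and 1293, 1145, 1279.6 and 1494 CPM on 44% fat. CAST/EiJ had 2194, 781, 1723 and 1995 CPM on 10% fat, and 1488, 1328, 1256 and 1453 CPM on 44% fat. NZO/HlLtJ had 1654, 1017, 1264 and 1254 CPM on 10% fat, and 880.3, 1017, 1767 and 1080.4 CPM on 44% fat. The highest value of all was in C57BL/6J 10% fat replicate 2 and the lowest in replicate 1 of the same group, and all strains overlapped. CAST/EiJ differed from C57BL/6J by 0.21 ± 0.25 (edgeR adjusted p = 0.51), and by 0.62 (adjusted p = 0.015) without C57BL/6J 10% fat replicate 2.

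Inhba (chr13:16011851-16027211, plus strand, 5 exon blocks) encodes the βA subunit, which preovulatory granulosa cells make. C57BL/6J held 126, 781 and 65.8 CPM on 10% fat, and 333, 407, 301 and 467 CPM on 44% fat. CAST/EiJ held 349, 37.2, 641 and 224 CPM on 10% fat, and 360.2, 501, 154 and 279.6 CPM on 44% fat. NZO/HlLtJ held 515, 230.2, 133 and 352 CPM on 10% fat, and 175, 310.0, 321 and 227 CPM on 44% fat. The highest library was again C57BL/6J 10% fat replicate 2, and the lowest the oviduct-rich CAST/EiJ 10% fat replicate 2. The strain differences were -0.14 ± 0.50 for CAST/EiJ and -0.31 ± 0.50 for NZO/HlLtJ against C57BL/6J (edgeR adjusted p = 0.85 and 0.70), and such errors leave room for changes above 1 on the log2 scale.

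Inhbb (chr1:119415465-119422248, minus strand, 2 exon blocks) encodes the βB subunit, made by smaller growing follicles. C57BL/6J showed 303, 658 and 301 CPM on 10% fat, and 704, 408, 609 and 355 CPM on 44% fat. CAST/EiJ showed 824, 18.6, 503 and 759 CPM on 10% fat, and 498, 324, 536 and 433 CPM on 44% fat. NZO/HlLtJ held 417, 304, 432 and 255 CPM on 10% fat, and 197, 418, 267 and 392 CPM on 44% fat. CAST/EiJ 10% fat replicate 2, at 18.6 CPM, was far below the other 22 libraries, whose lowest was 197 CPM. NZO/HlLtJ differed from CAST/EiJ by -0.54 ± 0.42 (edgeR adjusted p = 0.31), and by -0.73 without that library (adjusted p = 0.0095). The same library had 3.18 CPM of Cyp19a1, the aromatase gene, and the highest levels of the cumulus genes Ptgs2 (16.4 CPM), Ptx3 (16.3 CPM) and Tnfaip6 (12.6 CPM). The labels give no cycle stage that could be set beside these values.

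Promoters of the sister subunit genes are shown together to set their motif matches side by side. Each is the 250 bases before the start, for Inhba chr13:16011601-16011850 on the plus strand and for Inhbb chr1:119422249-119422498 on the minus strand, with capitals for motif matches.
Inhba promoter: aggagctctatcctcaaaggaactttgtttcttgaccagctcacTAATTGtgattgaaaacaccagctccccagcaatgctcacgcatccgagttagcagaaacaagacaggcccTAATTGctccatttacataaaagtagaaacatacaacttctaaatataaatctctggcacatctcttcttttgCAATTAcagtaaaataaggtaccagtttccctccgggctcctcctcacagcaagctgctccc
Inhbb promoter: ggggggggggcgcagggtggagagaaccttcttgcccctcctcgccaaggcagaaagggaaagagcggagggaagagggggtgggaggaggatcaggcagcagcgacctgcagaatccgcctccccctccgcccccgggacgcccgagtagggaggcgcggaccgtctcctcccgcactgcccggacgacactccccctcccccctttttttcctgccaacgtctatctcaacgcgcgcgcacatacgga
The Inhba promoter held 3 matches to TAATTG, at bases 206 to 201 and 135 to 130 as printed and at bases 62 to 57 as the reverse complement. In the Inhbb promoter neither NOBOX element was found on either strand, nor the core bound by the Nr5a1 product. The cyclic AMP response element TGACGTCA, which occurs in 1.55% of promoters, was in none of the 4 promoters printed here.

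Fst (chr13:114452262-114458730, minus strand, 3 exon blocks) encodes follistatin, the binding protein that neutralises activins. C57BL/6J had 86.7, 293 and 78.1 CPM on 10% fat, and 112, 134, 108 and 162 CPM on 44% fat. CAST/EiJ had 239, 60.7, 227 and 195 CPM on 10% fat, and 171, 148, 90.7 and 169 CPM on 44% fat. NZO/HlLtJ had 152, 95.6, 98.2 and 118 CPM on 10% fat, and 93.9, 125, 106 and 79.6 CPM on 44% fat. The libraries at the extremes were the same as for Inhba, C57BL/6J 10% fat replicate 2 at the top and CAST/EiJ 10% fat replicate 2 at the bottom. NZO/HlLtJ differed from CAST/EiJ by -0.58 ± 0.27, short of the threshold (edgeR adjusted p = 0.088). Without CAST/EiJ 10% fat replicate 2 the difference was -0.72 (adjusted p = 0.017), and without C57BL/6J 10% fat replicate 2 it was -0.58 (adjusted p = 0.034). CAST/EiJ differed from C57BL/6J by 0.21 ± 0.28 (edgeR adjusted p = 0.58), and by 0.65 (adjusted p = 0.036) without the latter library. An antisense gene overlaps 2.51% of the exon bases of Fst and is not listed in the count table.

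Ratios among the subunits did not part the strains. Inhbb to Inhba ran from 0.50 to 4.58 over the 23 libraries, with overlap between all strains. Inha to the sum of Inhba and Inhbb, a measure of α over β subunit RNA, was 1.25 to 3.0 in 22 libraries and 14.0 in CAST/EiJ 10% fat replicate 2. Fst to Inhba ranged from 0.29 to 1.63, and within C57BL/6J on 44% fat only from 0.33 to 0.36. These ratios had no test.

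Diet changed none of these genes past the threshold in any strain. With edgeR, 0 of the 9 passed for 44% fat against 10% fat in C57BL/6J, where 0% of all genes passed, 0 of 9 in CAST/EiJ, where 0.624% passed, 0 of 9 in NZO/HlLtJ, where 0% passed, and 0 of 9 averaged over strains, where 0% passed. At an unadjusted p under 0.05 there were 0, 1, 0 and 0 genes, and DESeq2 and limma called 0 in each. The gene with that unadjusted p was Amh in CAST/EiJ. Its group means were 59.9 ± 25.6 CPM on 10% fat and 38.5 ± 12.7 CPM on 44% fat (SD, n = 4 each), a log2 difference of -0.64 ± 0.28 with an edgeR adjusted p of 0.32. In C57BL/6J the Amh means were 105 ± 28.4 CPM on 10% fat (SD, n = 3) and 138 ± 18.3 CPM on 44% fat (SD, n = 4), a difference of 0.40 ± 0.30 (edgeR adjusted p = 0.72). In NZO/HlLtJ they were 93.8 ± 14.3 CPM and 107 ± 27.9 CPM (SD, n = 4 each), a difference of 0.19 ± 0.28 (edgeR adjusted p = 1).

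The median diet difference over the 9 genes was 0.30 in C57BL/6J, -0.31 in CAST/EiJ and -0.06 in NZO/HlLtJ on the log2 scale, against 0.01, -0.02 and -0.00070 over all genes. Gdf9 and Bmp15 had differences of 0.32 ± 0.27 and 0.31 ± 0.29 in C57BL/6J and of -0.31 ± 0.25 and -0.36 ± 0.26 in CAST/EiJ. None of these passed, and without C57BL/6J 10% fat replicate 1 the values in C57BL/6J were -0.02 for Gdf9 and -0.05 for Bmp15. Without C57BL/6J 10% fat replicate 2, the differences in C57BL/6J moved from 0.22 to 1.97 for Inhba and from 0.36 to 1.18 for Bmpr1b (edgeR adjusted p = 0.20 and 0.061). The strain-by-diet terms, which test whether the diet difference itself depended on strain, called 0 of 9 genes in each of 3 comparisons in edgeR, where 0.614% (CAST/EiJ against C57BL/6J), 0% (NZO/HlLtJ against C57BL/6J) and 0.0149% (NZO/HlLtJ against CAST/EiJ) of all genes passed. At an unadjusted p under 0.05 there were 1, 0 and 1 genes, and DESeq2 and limma called 0. The gene was Amh in both cases. Its diet difference in CAST/EiJ minus that in C57BL/6J was -1.04 ± 0.41 with an unadjusted p of 0.020 and an edgeR adjusted p of 0.21. The same term for Bmpr1b was -0.69 ± 0.49 (edgeR adjusted p = 0.51) and became -1.50 (adjusted p = 0.037) without C57BL/6J 10% fat replicate 2.

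Correlations across libraries were read for every pair of the 9 genes. Group means were removed from log2 CPM, and Pearson's r was computed over the 23 libraries for all 36 pairs, with a two-sided permutation test within groups and Benjamini-Hochberg adjustment over the pairs. By Pearson's r 11 pairs passed an adjusted p of 0.05, by Spearman's rho 10, by both 9, and 0 of those passing had a negative r. The closest pair was Gdf9 with Bmp15 (r = 0.96, rho = 0.94, adjusted permutation p = 0.00036 for each, from a raw p of 1e-05 that is the smallest 100000 resamples can give). Without the 2 libraries farthest from the median of Gdf9 the r was 0.93. Inhba with Fst had r = 0.93 and rho = 0.87 (adjusted permutation p = 0.0019 and 0.0012), and r = 0.85 without 2 libraries. Fst with Bmpr1b had r = 0.80 and rho = 0.76 (adjusted permutation p = 0.00054 and 0.0012), and r = 0.79 without 2 libraries.

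**Figure D4:**
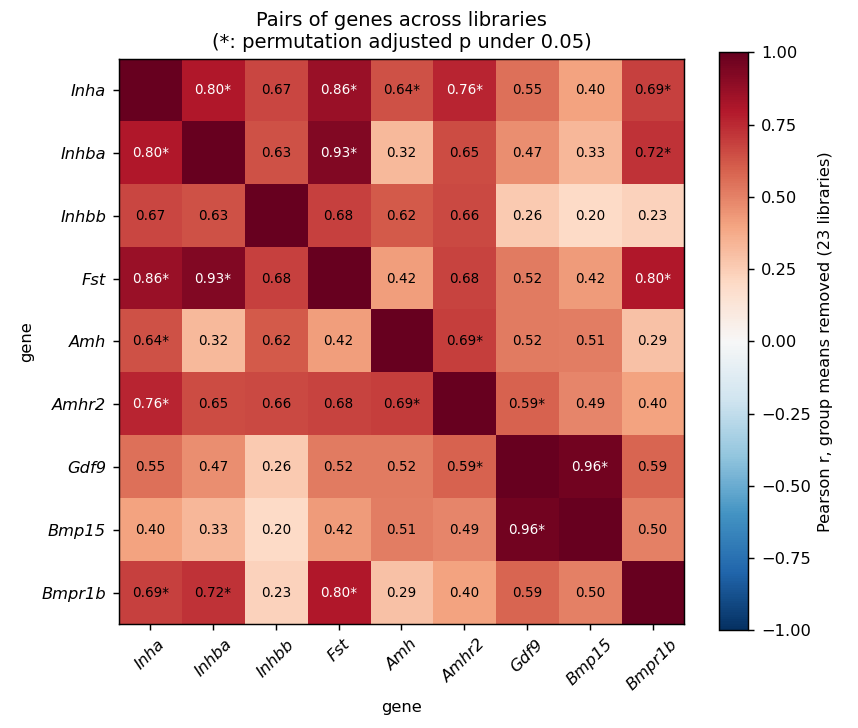
Pearson r over 23 libraries for each pair of genes, from log2 CPM with group means removed, with an asterisk where the permutation adjusted p was under 0.05. Gdf9 with Bmp15 (0.96) and Inhba with Fst (0.93) are the darkest cells, and Inhbb has no asterisk in its row.

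Inha passed with Inhba (r = 0.80), Fst (0.86), Amh (0.64), Amhr2 (0.76) and Bmpr1b (0.69), with adjusted permutation p of 0.041, 0.023, 0.038, 0.019 and 0.038. Spearman's rho for these pairs was 0.71, 0.80, 0.48, 0.68 and 0.61, and by it Inha with Amh did not pass (adjusted permutation p = 0.13). Without the 2 libraries farthest from the median of Inha the r values were 0.60, 0.71, 0.49, 0.65 and 0.53. Inhba with Bmpr1b had r = 0.72 and rho = 0.73 (adjusted permutation p = 0.017 and 0.011), or r = 0.66 without 2 libraries. Amhr2 with Gdf9 passed by r (0.59, adjusted permutation p = 0.041) and not by rho (0.56, adjusted permutation p = 0.057). Amh with Amhr2 had r = 0.69 and rho = 0.61 within groups (adjusted permutation p = 0.041 and 0.034), although the genes differed in opposite directions between CAST/EiJ and C57BL/6J. That r was 0.48 without the 2 farthest libraries. Inhbb passed with 0 of the other 8 genes, and with Inhba its r was 0.63 (adjusted permutation p = 0.14), or 0.31 without 2 libraries. Several of these relations rest on CAST/EiJ 10% fat replicate 2 and C57BL/6J 10% fat replicate 2. Leaving out either brought the number of pairs that passed from 11 to 3. It was 6 without replicate 1 or 3 of C57BL/6J on 10% fat, replicate 4 of C57BL/6J on 44% fat, replicate 1 or 4 of CAST/EiJ on 10% fat or replicate 3 of NZO/HlLtJ on 44% fat, and 7 without replicate 1 of the last group. Without both oviduct-rich libraries, 3 pairs passed, which were Inhba with Fst (r = 0.88), Fst with Bmpr1b (r = 0.90) and Gdf9 with Bmp15 (r = 0.96). Within the identifier series, the 11 pairs had r of 0.46 to 0.97 in series 76 (8 libraries), 0.60 to 0.96 in series 82 (9 libraries) and -0.04 to 0.93 in series 90 (6 libraries). The value of -0.04 was that of Inhba with Bmpr1b, and Gdf9 with Bmp15 kept r = 0.97, 0.96 and 0.93.

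Each gene was also set against 11720 genes with a mean of at least 5 CPM, by r of the same group-centred values over 23 libraries, as a description that carries no test. The genes nearest to Gdf9 were Zp3 (r = 0.99), Padi6 (0.99) and Zp2 (0.99), which encode zona pellucida proteins and an oocyte arginine deiminase. Those nearest to Bmp15 were Nlrp14 (0.98), Pla2g4c (0.98) and Apela (0.98). For Inhba they were Cyp19a1 (0.97), which encodes aromatase, Med23 (0.97) and Smim10l2a (0.95), and for Fst St3gal4 (0.96), Smim10l2a (0.95) and Masp1 (0.94). Smim10l2a thus stood on the lists of both Inhba and Fst. Bmpr1b was nearest to Rgs13 (0.97), Prss23 (0.96) and Tdrd5 (0.96).

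Amh was nearest to Dctd (r = 0.88), Mybl2 (0.88) and Mcm6 (0.87), of which Mcm6 encodes a subunit of the replicative helicase, Mybl2 a transcription factor of dividing cells and Dctd a deaminase of nucleotide synthesis. Amhr2 was nearest to Wdr62 (0.94), Mov10 (0.93) and BC017158 (0.89), and Wdr62 encodes a protein of the mitotic spindle pole. The nearest genes to Inha were St3gal5 (0.95), Anapc7 (0.94) and Obsl1 (0.92), and Obsl1 lies 625 bases from Inha on the opposite strand. Inhbb was nearest to Plekhd1 (0.93), Lzts1 (0.93) and Sema7a (0.91). Without both oviduct-rich libraries these last values were 0.61, 0.65 and 0.62, while Gdf9 with Zp3 stayed at 0.99 and Inhba with Cyp19a1 at 0.96.

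The other genes of the pathway were read from lists of ligands, receptors, SMAD proteins, inhibitors and targets. Their counts stand against the 46.8% of all genes that passed in CAST/EiJ against C57BL/6J, 23.9% in NZO/HlLtJ against C57BL/6J and 48.1% in NZO/HlLtJ against CAST/EiJ. In the first comparison 5 of 8 ligands, 4 of 10 receptors, 4 of 8 SMAD genes and 3 of 7 inhibitors were called, and nothing is read from these shares. Among 8 other ligands, 3 were higher and 2 lower in CAST/EiJ than in C57BL/6J, with a list median of 0.18 on the log2 scale. Bmp7, which theca cells secrete, was at 6.85 ± 1.50 CPM in C57BL/6J (SD, n = 7) and higher in CAST/EiJ, at 17.2 ± 3.90 CPM (SD, n = 8), a log2 difference of 1.33 ± 0.15 (edgeR adjusted p = 4.4e-07), with ranges that did not meet (4.98 to 9.06 and 11.7 to 24.8 CPM). Tgfb2 and Bmp6 were higher by 0.71 and 0.56, and Tgfb1 and Bmp4 were lower, at -0.90 and -0.59. In NZO/HlLtJ against C57BL/6J 0 of the 8 ligands passed in edgeR. Against CAST/EiJ 4 were higher in NZO/HlLtJ, among them Bmp5 (0.75), Bmp4 (0.64) and Tgfb1 (0.53), and Bmp7 (-1.42) and Tgfb2 (-0.56) were lower. Of 6 theca markers 4 were called higher in CAST/EiJ, as given above, and their part in the Bmp7 difference was not tested.

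Of 10 other receptors, 3 were higher and 1 lower in CAST/EiJ than in C57BL/6J, 5 higher and 0 lower in NZO/HlLtJ than in C57BL/6J, and 1 higher and 0 lower in NZO/HlLtJ than in CAST/EiJ. The largest of these differences was that of Acvr1c, encoding the type I receptor ALK7, with 2.60 ± 1.11 CPM in C57BL/6J (SD, n = 7) and 7.25 CPM in each of the other strains (SD 3.73 in CAST/EiJ and 1.88 in NZO/HlLtJ, n = 8). Its log2 difference was 1.47 ± 0.32 in CAST/EiJ (edgeR adjusted p = 0.00091) and 1.47 ± 0.32 in NZO/HlLtJ (edgeR adjusted p = 0.0022). Of 6 markers of white adipocytes, which also express Acvr1c, 6 were higher in CAST/EiJ and 1 in NZO/HlLtJ than in C57BL/6J, and their part in this difference was not tested. The activin receptor gene Acvr2a was higher by 0.26 in CAST/EiJ and by 0.30 in NZO/HlLtJ, Tgfbr3, whose product betaglycan is the inhibin coreceptor, by 0.24 in CAST/EiJ, and Acvr1 by 0.34 in NZO/HlLtJ. Without both oviduct-rich libraries Tgfbr3 and Acvr1 no longer passed (edgeR adjusted p = 0.075 and 0.061). Tgfbr2 was lower in CAST/EiJ, at -0.36. Acvr1b was higher in NZO/HlLtJ than in CAST/EiJ by 0.25.

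Among 8 SMAD genes, which encode the intracellular messengers of the family, 4 were higher and 0 lower in CAST/EiJ than in C57BL/6J. The members named by size of change were the inhibitory Smad6 (0.76) and Smad7 (0.44) and the activin-responsive Smad2 (0.30). In NZO/HlLtJ against C57BL/6J, Smad2 was higher (0.30) and Smad9 lower (-0.45), and against CAST/EiJ 4 were lower, with Smad9 at -0.80, Smad7 at -0.59 and Smad6 at -0.43. Of 7 other binding proteins and inhibitors, 3 were higher in CAST/EiJ than in C57BL/6J, which were Grem1 (2.32 ± 0.80), Nog (1.57 ± 0.21) and Bambi (0.35), and 0 were lower. Grem1, a BMP antagonist of granulosa cells, spanned 0.84 to 152 CPM in C57BL/6J and 41.1 to 379 CPM in CAST/EiJ, and the ranges overlapped. Nog (-1.06) and Bambi (-0.24) were lower in NZO/HlLtJ than in CAST/EiJ, and Bambi no longer passed without CAST/EiJ 10% fat replicate 2 (-0.18, edgeR adjusted p = 0.098).

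The BMP target genes did not move as a group. Of Id1 to Id4, 1 was higher and 0 lower in CAST/EiJ than in C57BL/6J, with a list median of -0.01. Id4 had 3.02 ± 0.56 CPM in C57BL/6J (SD, n = 7), 12.9 ± 2.72 CPM in CAST/EiJ (SD, n = 8) and 2.54 ± 0.62 CPM in NZO/HlLtJ (SD, n = 8), and CAST/EiJ, at 8.27 to 16.8 CPM, did not overlap with the others. Its log2 difference was 2.08 ± 0.18 against C57BL/6J (edgeR adjusted p = 9.0e-09). In NZO/HlLtJ against CAST/EiJ, Id4 was lower (-2.34) and Id1 higher (0.36). Of 4 cumulus genes that respond to GDF9, 1 was higher in CAST/EiJ than in C57BL/6J, Ptx3 at 1.08 ± 0.28 (edgeR adjusted p = 0.0033), with 1.19 to 3.97 CPM in C57BL/6J and 3.28 to 16.3 CPM in CAST/EiJ, the highest in the oviduct-rich library, without which the difference was 0.79 (adjusted p = 0.0065). For diet, 0 genes of these pathway lists passed in any strain. The strain-by-diet term of CAST/EiJ against C57BL/6J called 1 of 7 inhibitors, Nog, encoding the BMP antagonist noggin, at -1.89 ± 0.42 (edgeR adjusted p = 0.042), at levels of 0.22 to 2.18 CPM in the 15 libraries of these strains. Without both oviduct-rich libraries the Nog term was -2.02 and no longer passed (edgeR adjusted p = 0.059).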

How the data were processed

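The authors deposited expected counts per gene, estimated from the reads, of which 27.4% were not whole, and log2 values after variance stabilisation, which served only as an alternative. Per the labels' protocols, RNA was selected by polyA, prepared with a KAPA mRNA HyperPrep kit and sequenced as 100 bp pairs to a target of 30 M read pairs. The submitters' processing notes name GRCm38 and DESeq2, and the aligner, counter and settings are not given in the sources used here. Positions come from the authors' deposited annotation, and exon lengths from GENCODE M21.

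Counts were rounded, filtered with edgeR's filterByExpr (minimum count 10, minimum total 15), scaled by trimmed mean of M values and fitted in edgeR (robust quasi-likelihood) with 1 mean for each of 6 groups, over 23 libraries. From it 10 comparisons were drawn, with Benjamini-Hochberg adjustment over the 20189 genes tested and a threshold of 0.05. The SE was derived from the F statistic, as the size of the log2 difference over its root. Correlations used log2 CPM with a prior count of 2 and 100000 resamples (20000 where libraries were left out). Chi-square per degree of freedom was 12.4 to 219.7 for the 33 same-group pairs of libraries, so none was counted as a repeat. The tests were checked on simulated data.

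Alternatives were DESeq2, no count filter, scaling by relative log expression, only the strains compared, the identifier series as a term, limma on the authors' values, each library left out in turn, and both libraries richest in oviduct RNA left out. The text names all 9 genes, from each pathway list the 3 called genes that changed most in either direction (fewer where fewer were called), and the 3 genes nearest to each of the 9 by r, leaving out clone names, and 1 gene that the rule names is not reported here. Marker genes of other cells are named where a value of theirs stands beside a result. The genes, lists and tests were chosen with earlier results of these data known. RefSeq promoters (build GRCm38.p6) were matched by symbol for 6 of 9 genes, and those of 4 genes started within 10 bases of the annotated start. R 4.3.3 was used with DESeq2 1.42.0, edgeR 4.0.16 and limma 3.58.1.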

Additional observations from a re-analysis of the deposited data

Results flagged for a closer look

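In 45 combinations of gene and group with 4 libraries, 1 held a library far from the others by the gap to its nearest neighbour over the range of the group. Bmpr1b in NZO/HlLtJ 10% fat replicate 3 was at 71.2 CPM, against 127 to 138 CPM in the other libraries of its group. Chance flags about 1 in 20 such groups. Granulosa markers in that library had a score of -0.34, the lowest of its group. The group of 3 libraries was too small for this rule.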

How the results depend on the processing

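Among values of single genes under the alternatives, 2670 kept their side of the threshold, 21 passed it newly, and 0 called values were lost or changed sign. Of the 2550 values that passed neither way, 166 had the opposite sign to the main value, in 46 of 90 combinations of gene and comparison, at sizes up to 0.83 on the log2 scale. The 4 calls of strain differences (Amh against both other strains, Amhr2 and Gdf9 against C57BL/6J) held in 30 of 30 alternatives each. The counts of genes called moved as follows. CAST/EiJ against C57BL/6J had 3, and 3 to 6 with a library left out. NZO/HlLtJ against C57BL/6J had 0, but 1 with DESeq2, 1 with limma on the authors' values, 1 with only the strains compared, 1 without both oviduct-rich libraries, and 0 to 2 with a library left out. NZO/HlLtJ against CAST/EiJ had 1, but 4 without both oviduct-rich libraries and 1 to 4 with a library left out. The strain-by-diet term of CAST/EiJ against C57BL/6J had 0, and 0 to 1 with a library left out. The 11 correlated pairs became 3 without both oviduct-rich libraries, and 3 to 13 with a library left out. Except for the values given in the report, the cause was not tested. No paired analysis was possible because the replicate numbers follow the order of deposit and pair nothing. For diet in C57BL/6J the SE was 0.74 for Inhba and 0.30 for Amh, so the precision differed between genes.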
